A study of Mus musculus with 16 samples.

Results

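The genes described here mark the layers of the embryonic heart wall or couple its muscle cells to each other: *Nppa*, *Nppb*, *Gja5*, *Gja1*, *Gjc1*, *Irx3*, *Etv1*, *Cited1*, *Mycn* and *Prdm16*. They were chosen by symbol, as the probe sets of the array that name a single gene and name 1 of these 10. All 10 had such a probe set, *Etv1* had 2, and together they made 11 of 34760 probe sets and 10 of 19937 genes. Whole hearts of C57BL/6 mouse embryos were dissected and hybridised 1 per array, on 16 arrays in 4 groups of 4: *Chd7*fl/fl;*Mesp1-Cre* (mutant) and control hearts at E13.5, and mutant and control hearts at E11.5. *Chd7* encodes an ATP-dependent chromatin remodeller. In mutants, both copies carry loxP sites and are recombined by a Cre expressed from *Mesp1*, thus in the anterior mesoderm and the heart tissues that derive from it, while cells of other origins in the heart keep the gene. The labels call the controls WT and describe a cross of *Chd7*fl/+;*Mesp1-Cre* with *Chd7*fl/fl mice, which gives no *Chd7*+/+ offspring, whereas the methods name *Chd7*+/+;*Mesp1-Cre* controls, so that the alleles and the Cre carried by the controls are not settled. The question was how loss of *Chd7* in this lineage affected transcription in the heart.

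After the early heart tube has looped, its ventricles form ridges of muscle, the trabeculae, on the side of the lumen, while an outer compact wall keeps dividing and later thickens. Trabecular muscle divides little, conducts fast and is a source of the Purkinje fibres of the ventricular conduction system. *Nppa* and *Gja5* are classical markers of trabecular and of atrial muscle, *Irx3* and *Etv1* are transcription factors of the fast-conducting network, and *Mycn* and *Prdm16* are known for their roles in the compact wall of the mouse. Fewer cells of a type and less RNA per cell cannot be told apart in whole hearts, and neither can atrial and trabecular transcripts of the same gene.

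Values are log2 levels from RMA, a method that corrects the background, gives arrays the same distribution and summarises the probes of a probe set. They were tested with limma over all 16 arrays, with Benjamini-Hochberg adjustment across all 34760 probe sets for each contrast. A gene was called when a probe set that names no other gene passed 2 limits, an adjusted p below 0.05 and a log2 fold change (log2 FC) of more than 0.5 in size. Levels of different genes were not compared with each other, since probe sets differ in brightness. Nothing in the labels says that the hearts of a group came from separate litters.

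*Chd7* itself, which checks the labels, lay between 8.88 and 9.07 in the E13.5 mutants against 9.83 to 10.30 in the E13.5 controls, and between 9.16 and 9.73 in the E11.5 mutants against 10.64 to 10.89 in the E11.5 controls. None of 8 markers of myocardium was called between the genotypes at either stage. Means of 5 markers of cushion mesenchyme were lower in all mutants at E11.5 (9.03 to 9.22, against 9.24 to 9.46 in controls), as were those of 4 measured markers of nerve and neural crest (6.54 to 6.82, against 6.86 to 7.13). At E13.5, means of 7 endocardial markers were lower in all mutants (10.56 to 10.84, against 10.85 to 10.91 in controls). Means of 6 epicardial markers at E13.5 were 10.55, 10.05, 11.09 and 10.10 in mutants, against 9.88 to 10.20 in controls. At E11.5 the epicardial means were 9.80 to 10.37 in mutants and 9.60 to 9.92 in controls, so the groups overlapped at both stages. None of the genes on these 4 lists was called. The part of these tissues in the results below was not tested. A set of 3 hearts stood apart from the rest of their stage, each by at least 21 genes that were over 1 log2 above the other 7 hearts: replicates 3 and 4 of the E11.5 mutants and replicate 1 of the E13.5 controls. No other heart had more than 5 such genes.

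Of the 10 genes, none was called between mutants and controls at E13.5, where 0.0451% of all genes were called. At E11.5, *Etv1* was called lower, by the dimmer of its 2 probe sets, and none was called higher. The study lists *Etv1* among its own called genes at E11.5, from these same arrays. Its listed log2 FC (-0.614) and limma adjusted p (0.0127) are those of the dimmer probe set here. The 10 genes were chosen with such results known, so this call is not independent evidence. The background at E11.5 was 0.166% of genes called lower and 0.105% called higher. By the brightest probe set of each gene, the count at E11.5 was 0, against 0.251% of all genes. Unadjusted p values under 0.05 were found for 2 genes at E13.5 (*Gja5* and *Etv1*), against 3.94% of all genes, and for 4 at E11.5 (*Gja5*, *Etv1*, *Cited1* and *Mycn*), against 9.34%. The median log2 FC of the 10 genes was 0.05 at E13.5, where that of all genes was 0.0042, and 0.08 at E11.5, where that of all genes was 0.0039. The direction was mixed at each stage, with 6 genes above and 4 below 0.

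**Figure D1:**
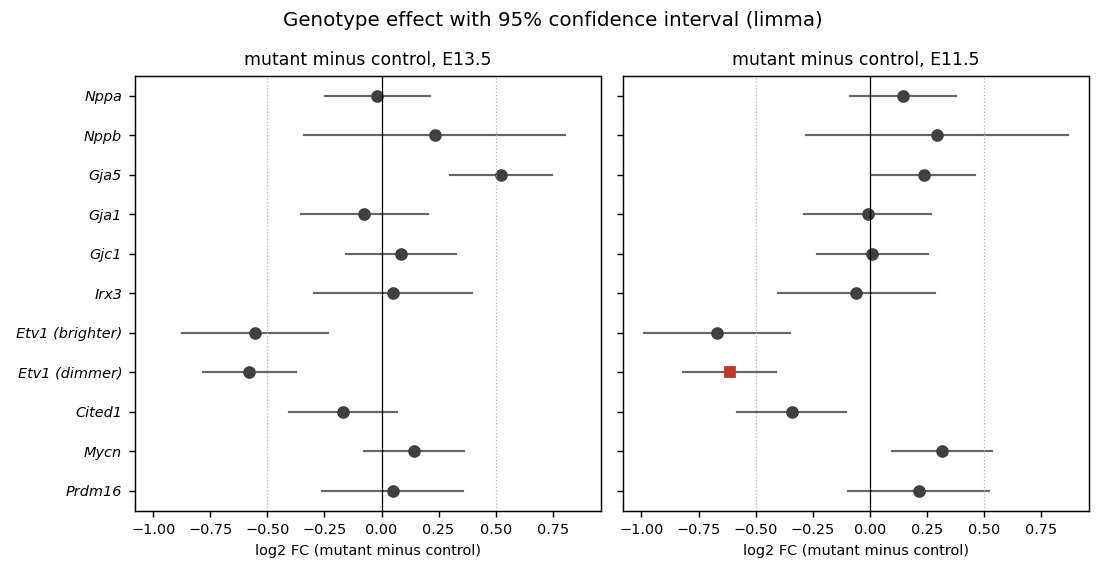
Log2 FC of mutant minus control for each probe set, with its 95% confidence interval from limma, at E13.5 (left) and E11.5 (right). The dotted lines mark a log2 FC of 0.5 in size and the red square the called probe set, *Etv1* (dimmer) at E11.5. Intervals of both *Etv1* probe sets lie below 0 at both stages, and that of *Gja5* lies above 0 at both.

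The natriuretic peptides come from 2 neighbouring genes, *Nppa* and *Nppb*, which encode the precursors of ANP and BNP. Both peptides act through guanylyl cyclase receptors, and *Nppb* in muscle cells is known to respond to stretch. The 250 bases before the RefSeq start sites of this pair (assembly GRCm38.p6, plus strand) are shown because both genes are textbook targets of cardiac transcription factors. In all sequences printed here, capitals mark matches on either strand to 6 short motifs that were chosen after the windows had been seen, those of T-box, NK2, GATA, ETS and TEAD factors and the TATA box. No base was shared by 2 of these motifs.
Nppa, chr4:148000472-148000721: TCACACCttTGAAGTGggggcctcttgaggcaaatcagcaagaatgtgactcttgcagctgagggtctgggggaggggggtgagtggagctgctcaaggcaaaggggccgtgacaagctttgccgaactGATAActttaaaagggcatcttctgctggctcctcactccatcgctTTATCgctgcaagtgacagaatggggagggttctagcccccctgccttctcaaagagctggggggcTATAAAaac
Nppb, chr4:147985650-147985899: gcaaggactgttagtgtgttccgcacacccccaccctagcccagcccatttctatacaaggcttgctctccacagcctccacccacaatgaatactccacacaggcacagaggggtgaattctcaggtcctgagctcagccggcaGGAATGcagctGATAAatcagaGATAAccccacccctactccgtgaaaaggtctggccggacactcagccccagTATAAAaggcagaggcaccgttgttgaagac
The *Nppa* window held a T-box match, an NK2 match, 2 GATA matches and a TATA match. Of the 9 genes here that have a promoter window, the T-box letters, GGTGTGA, were found in *Nppa* alone, while they stood in 3.33% of the 32841 mouse windows of this length. The NK2 letters, TNAAGTG, stood in 10.1% of all windows. The GATA motif was searched as GATAA and stood in 22.6% of windows, and the TATA box was searched as TATAAA and stood in 12.4%. The *Nppb* window held 2 GATA matches, a TATA match and a TEAD match, the last searched as GGAATG and found in 12.6% of all windows. A match is a description of letters, and binding was not measured on these arrays.

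*Nppa* was close to equal between the genotypes. At E13.5 its level was 13.43, 13.38, 13.40 and 13.47 in mutant hearts, against 13.57, 13.41, 13.29 and 13.48 in control hearts. At E11.5 it was 12.85, 12.92, 12.86 and 13.26 in mutant hearts, against 12.85, 12.67, 12.79 and 12.996 in control hearts. The groups overlapped at both stages, and the highest E11.5 value was that of mutant replicate 4. The log2 FC was -0.02 at E13.5 (95% confidence interval -0.25 to 0.21, adjusted p = 1.00) and 0.15 at E11.5 (-0.08 to 0.38, adjusted p = 0.734). With 4 hearts a group, differences of any size within these intervals remain compatible with the values.

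*Nppb* varied more between hearts of the same group than most genes did. Its level at E13.5 was 12.22, 11.41, 11.54 and 12.05 in mutant hearts, against 11.15, 11.94, 11.69 and 11.498 in control hearts. At E11.5 it was 11.39, 11.35, 11.63 and 12.73 in mutant hearts, against 11.38, 11.55, 11.49 and 11.501 in control hearts. The E11.5 controls lay close together, whereas replicate 4 of the E11.5 mutants was the highest of all 16 hearts. The SD pooled within groups was 0.41, at percentile 95.7 of all genes. Mutant minus control, its log2 FC was 0.23 at E13.5 (SE 0.27, adjusted p = 1.00) and 0.30 at E11.5 (SE 0.27, adjusted p = 0.799). Without the 3 hearts that stood apart, the E11.5 value turned to -0.11 (adjusted p = 0.915).

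The 3 hearts with the most *Nppb* were also those with the highest levels of 12 genes known to be induced by hypoxia, among them *Slc2a1*, *Pdk1*, *Ldha* and *Vegfa*. The mean log2 level of this list was 11.29 in replicate 4 of the E11.5 mutants, against 10.26 to 10.44 in the other mutants and 10.12 to 10.18 in the controls of that stage. At E13.5, mutant replicates 1 and 4, with 12.22 and 12.05 for *Nppb*, had list means of 10.92 and 10.94. Replicates 2 and 3 had list means of 10.54 and 10.59, and the controls had 10.46 to 10.73. Control replicate 1, at 10.73 the highest control, had the least *Nppb* of its group, 11.15. None of the 12 genes was called between the genotypes at either stage. The part of hypoxia in the level of *Nppb* was not tested.

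**Figure D2:**
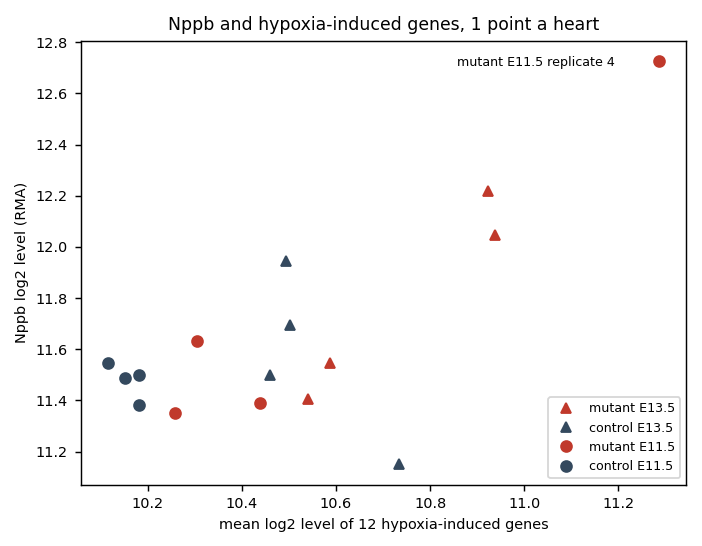
Log2 level of *Nppb* (y axis) against the mean log2 level of 12 hypoxia-induced genes (x axis), 1 point for each of the 16 hearts, with mutants in red, controls in blue-grey, triangles for E13.5 and circles for E11.5. Replicate 4 of the E11.5 mutants, at 11.29 and 12.73, stands alone, followed by mutant replicates 4 and 1 of E13.5.

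Of 6 other genes of the natriuretic pathway (*Nppc*, the receptors *Npr1*, *Npr2* and *Npr3*, and the processing enzymes *Corin* and *Furin*), none was called between the genotypes. The smallest p was that of *Npr2*, the receptor of the C-type peptide, with a log2 FC of 0.08 at E13.5 (adjusted p = 1.00) and 0.45 at E11.5 (adjusted p = 0.135). *Nppb* and *Nppa* lie next to each other, and the nearest measured genes are *Plod1* and *2510039O18Rik* before *Nppb*, and *Clcn6* and *Agtrap* after *Nppa*. None of these 4 was called between the genotypes. The E13.5 hearts did not overlap for *Agtrap*, which encodes a protein that binds the angiotensin II type 1 receptor, with a log2 FC of 0.26 (adjusted p = 1.00).

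The gap junction genes encode connexins, which form channels between neighbouring muscle cells. *Gja5* builds the fast channels of atria, trabeculae and conduction system, *Gja1* those of the working ventricle, and *Gjc1* the slower channels of the early heart. The window before the *Gja5* start site is shown because this gene had the largest positive log2 FC of the 10 at E13.5. It held none of the 6 motifs.
Gja5, chr3:97032152-97032401: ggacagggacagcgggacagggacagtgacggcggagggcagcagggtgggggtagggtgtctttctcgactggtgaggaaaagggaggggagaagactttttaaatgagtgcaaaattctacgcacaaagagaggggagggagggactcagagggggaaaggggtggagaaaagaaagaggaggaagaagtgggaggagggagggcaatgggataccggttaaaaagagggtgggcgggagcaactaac

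*Gja5* was higher in every E13.5 mutant heart than in any E13.5 control, but did not pass the adjusted threshold. At E13.5 its level was 11.83, 12.0003, 12.03 and 11.83 in mutant hearts, against 11.37, 11.38, 11.35 and 11.49 in control hearts. At E11.5 it was 10.63, 10.71, 10.61 and 10.22 in mutant hearts, against 10.24, 10.31, 10.32 and 10.35 in control hearts. The other 3 E11.5 mutants lay above all controls, and replicate 4, the heart with the highest *Nppb*, lay below them. The log2 FC at E13.5 was 0.52 (SE 0.11, 95% confidence interval 0.30 to 0.75, adjusted p = 0.122), a level 1.44 times that of controls. At E11.5 it was 0.24 (SE 0.11, adjusted p = 0.496), and 0.36 without the 3 hearts that stood apart (adjusted p = 0.229). Over the alternative settings the adjusted p at E13.5 ran from 0.0133 to 0.713, and the gene was called under 4 of 30, including the fit without replicate 4 of the E11.5 mutants (adjusted p = 0.0321), a heart that enters the E13.5 test through the shared variance. Groups that did not overlap were found for 3 of the 10 genes at E13.5 (*Gja5*, *Etv1* and *Mycn*), against 4.08% of all genes, and for 1 at E11.5 (*Etv1*), against 3.93%.

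The effect on *Gja5* at E13.5 minus that at E11.5 was 0.29 (SE 0.15, 95% confidence interval -0.03 to 0.60, adjusted p = 1.00), which does not show a difference between the stages. No gene of the 10 was called in this test, and 0 of all 19937 genes were, nor did any of the 10 have an unadjusted p under 0.05.

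The other connexins of the heart did not differ detectably. *Gja1* was 12.23, 12.16, 11.95 and 12.40 in E13.5 mutants, against 12.11, 12.27, 12.31 and 12.36 in E13.5 controls, and 11.41, 11.24, 11.79 and 11.64 in E11.5 mutants, against 11.65, 11.37, 11.43 and 11.67 in E11.5 controls. Its log2 FC was -0.08 at E13.5 (95% confidence interval -0.35 to 0.20) and -0.01 at E11.5 (-0.29 to 0.27). *Gjc1* was 10.16, 10.11, 9.96 and 10.07 in E13.5 mutants, against 9.77, 10.08, 10.11 and 10.005 in E13.5 controls, and 10.27, 10.41, 10.01 and 10.54 in E11.5 mutants, against 10.34, 10.29, 10.23 and 10.33 in E11.5 controls. Its log2 FC was 0.09 at E13.5 (-0.16 to 0.33) and 0.01 at E11.5 (-0.23 to 0.25). Mutant and control hearts overlapped for both genes at both stages. Of 13 measured connexins outside these 3, none was called between the genotypes, and *Gja6* had the smallest p at E11.5 (log2 FC -0.54, adjusted p = 0.503). None of 10 genes of the intercalated disc, the junction in which gap junctions sit, was called either, and their median log2 FC was -0.05 at E13.5 and 0.08 at E11.5.

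**Figure D3:**
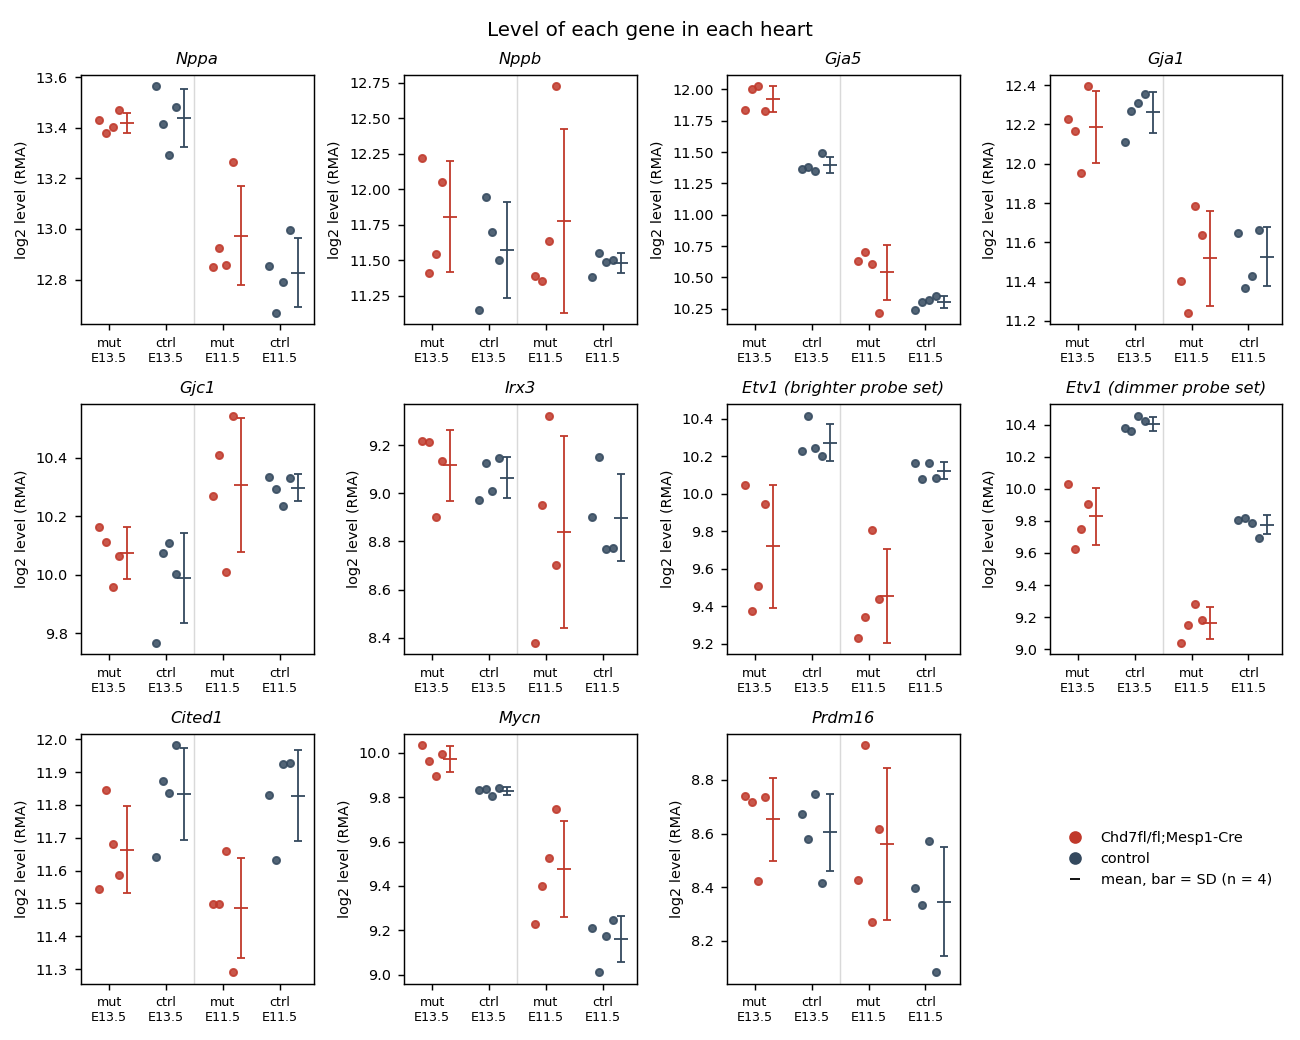
Log2 level (RMA) of the 10 genes in each heart, with mutants in red and controls in blue-grey, E13.5 on the left and E11.5 on the right of each panel, and the mean and SD of 4 hearts beside the points. The y axes differ between panels. *Gja5*, both *Etv1* probe sets and *Mycn* show E13.5 mutants that do not overlap the E13.5 controls.

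Among the transcription factors, *Etv1* carried the largest difference between the genotypes. It encodes an ETS factor that acts downstream of neuregulin signalling and is needed for the rapid conduction of atria and Purkinje fibres in the mouse. The window before the 5′-most of its start sites is shown for that reason. It held a TEAD match and no match to the ETS letters, GGAAGT, which stood in 19.7% of all windows.
Etv1, chr12:38779832-38780081: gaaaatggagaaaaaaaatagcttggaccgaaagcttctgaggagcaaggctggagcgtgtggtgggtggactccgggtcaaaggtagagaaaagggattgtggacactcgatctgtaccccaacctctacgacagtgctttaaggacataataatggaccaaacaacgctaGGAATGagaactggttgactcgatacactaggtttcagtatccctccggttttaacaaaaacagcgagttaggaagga

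By the brighter probe set, *Etv1* was 10.05, 9.38, 9.51 and 9.95 in E13.5 mutants, against 10.23, 10.42, 10.25 and 10.20 in E13.5 controls. At E11.5 it was 9.23, 9.34, 9.81 and 9.44 in mutants, against 10.17, 10.08, 10.16 and 10.09 in controls. Every mutant heart was below every control heart at both stages, and the mutants were spread more widely than the controls. The log2 FC was -0.55 at E13.5 (SE 0.15, adjusted p = 0.560) and -0.67 at E11.5 (SE 0.15, adjusted p = 0.0920), and neither was called. The E11.5 value was called under 3 of 30 alternatives, namely without replicate 3 of the E11.5 mutants (-0.79, adjusted p = 0.0422), with a prior that is robust and trended, and with only probe sets that name 1 gene. Levels in mutants were 68.1% of those in controls at E13.5 and 62.9% at E11.5.

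By the dimmer probe set, *Etv1* was 10.03, 9.63, 9.75 and 9.90 in E13.5 mutants, against 10.38, 10.36, 10.46 and 10.43 in E13.5 controls. At E11.5 it was 9.04, 9.15, 9.28 and 9.18 in mutants, against 9.81, 9.82, 9.79 and 9.69 in controls. Again no mutant overlapped a control, and the spread was among the smaller ones of the array, with a pooled SD of 0.11 at percentile 7.97 of all genes. The log2 FC was -0.58 at E13.5 (SE 0.10, adjusted p = 0.0509) and -0.61 at E11.5 (SE 0.10, adjusted p = 0.0127), where it was called lower. Mutants had 66.9% of the control level at E13.5 and 65.3% at E11.5. The effect did not differ detectably between the stages by either probe set, with differences of 0.11 (SE 0.21) and 0.03 (SE 0.14).

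Which transcripts the dimmer probe set reads is less certain than for the brighter. The annotation pairs both with *Etv1* transcripts. The numbers of the probe sets follow the genome, and for the brighter one all 10 named probe sets with the nearest numbers name genes on chromosome 12, where *Etv1* lies. For the dimmer one, 0 of 10 do, and all 10 name genes on chromosome 13, with *Cd180* before it and *Sgtb* after it. The position for which the dimmer probe set was designed was not used here, and whether it reads *Etv1* alone was not tested. For the other 9 genes, at least 9 of the 10 nearest lay on the gene's own chromosome.

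The call at E11.5 was lost under 5 of 29 alternatives, with adjusted p values from 0.00236 to 0.200, while the log2 FC stayed between -0.68 and -0.57. At E13.5 the same probe set was called under 8 of 29, with adjusted p values from 0.00687 to 0.484. Leaving out 1 heart gave such a call for replicates 1 and 4 of the E11.5 mutants (adjusted p = 0.0454 and 0.0473) and for replicate 1 of the E13.5 mutants (log2 FC -0.65, adjusted p = 0.0476). The sexes were not balanced, and the mean level of 3 Y-linked genes was 4.63, 5.20, 8.26 and 8.53 in E11.5 mutants, against 8.33 to 8.93 in E11.5 controls. With this mean as a covariate, the log2 FC of the dimmer probe set was -0.58 at E11.5 (adjusted p = 0.0562). Without the 3 hearts that stood apart it was -0.68 (adjusted p = 0.0518). Of the 12 relatives of the transcription factors that were measured (*Irx*, *Etv*, *Cited* and *Myc* genes and *Mecom*), none was called. *Mecom*, a relative of *Prdm16*, had the smallest adjusted p, with a log2 FC of -0.34 at E13.5 (adjusted p = 0.957) and -0.55 at E11.5 (adjusted p = 0.0635), and was called at E11.5 under 7 of 30 alternatives. *Etv4*, an ETS relative of *Etv1*, had a log2 FC of -0.17 at E13.5 and -0.50 at E11.5 (adjusted p = 0.184).

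*Irx3*, which represses *Gja1* and favours *Gja5* in the conduction system of the mouse, did not differ detectably. It was 9.22, 9.21, 8.90 and 9.14 in E13.5 mutants, against 8.97, 9.13, 9.01 and 9.15 in E13.5 controls, and 8.38, 8.95, 9.32 and 8.70 in E11.5 mutants, against 8.90, 9.15, 8.77 and 8.77 in E11.5 controls. The E11.5 mutants held both the lowest and the highest value of their stage. The log2 FC was 0.05 at E13.5 (95% confidence interval -0.29 to 0.40) and -0.06 at E11.5 (-0.40 to 0.29).

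*Cited1* encodes a transcriptional coactivator that binds CBP and p300. It was 11.54, 11.84, 11.68 and 11.59 in E13.5 mutants, against 11.64, 11.87, 11.84 and 11.98 in E13.5 controls, and 11.497, 11.498, 11.66 and 11.29 in E11.5 mutants, against 11.83, 11.63, 11.92 and 11.93 in E11.5 controls. At E11.5, all mutants except replicate 3 lay below every control. Its log2 FC was -0.17 at E13.5 (SE 0.11, adjusted p = 1.00) and -0.34 at E11.5 (SE 0.11, adjusted p = 0.299). *Cited1* lies on the X chromosome, and the sexes were not balanced. Over the 30 alternatives, which include the Y-linked covariate, its E11.5 value ran from -0.41 to -0.28.

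*Mycn* and *Prdm16* act in the compact wall, *Mycn* as a driver of proliferation and *Prdm16* as a zinc finger regulator of the compact identity of muscle. *Mycn* was 10.03, 9.96, 9.90 and 9.99 in E13.5 mutants, against 9.83, 9.84, 9.80 and 9.84 in E13.5 controls, and 9.23, 9.40, 9.53 and 9.74 in E11.5 mutants, against 9.21, 9.01, 9.18 and 9.25 in E11.5 controls. The E13.5 groups did not overlap, though the distance was small, and at E11.5 only mutant replicate 1 overlapped the controls. For *Mycn* the log2 FC was 0.14 at E13.5 (SE 0.10, adjusted p = 1.00) and 0.32 at E11.5 (SE 0.10, adjusted p = 0.302). The E11.5 value was 0.15 (adjusted p = 0.679) without the 3 hearts that stood apart, of which mutant replicates 3 and 4 had the most *Mycn* of their stage. *Prdm16* was 8.74, 8.72, 8.42 and 8.73 in E13.5 mutants, against 8.67, 8.58, 8.75 and 8.42 in E13.5 controls, and 8.43, 8.93, 8.27 and 8.62 in E11.5 mutants, against 8.40, 8.33, 8.57 and 8.08 in E11.5 controls. Its groups overlapped at both stages, with a log2 FC of 0.05 at E13.5 (95% confidence interval -0.26 to 0.36) and 0.21 at E11.5 (-0.09 to 0.52). None of 9 other genes of the compact wall, among them *Hey2*, *Tbx20*, *Ccnd1* and *Fgfr1*, was called, with medians of 0.07 at E13.5 and 0.06 at E11.5.

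Related genes were read from 7 lists with 85 genes, of which 80 were measured, each by its brightest probe set. Between the genotypes, calls were confined to the list of 12 measured trabecular and conduction genes outside the 10, which held *Sema3a* and *Slit2*. *Sema3a* encodes a secreted guidance cue known in the mouse for patterning cardiac sympathetic nerves, and *Slit2* a ligand of Robo receptors. Both were among the genes that the study itself followed. The paper reports less of both transcripts in mutants, by real-time PCR of dissected hearts and by in situ hybridisation in E13.5 trabeculae. Those assays were not part of the values used here. The array calls of both genes are not independent evidence, since the genes were followed for their results on these same arrays. *Sema3a* fell at both stages, with 9.31, 8.91, 9.15 and 9.10 in E13.5 mutants, against 9.73, 9.94, 9.94 and 9.67 in E13.5 controls, and 9.05, 9.03, 9.02 and 8.66 in E11.5 mutants, against 9.80, 9.89, 9.87 and 9.78 in E11.5 controls. No heart overlapped, and the log2 FC was -0.70 at E13.5 (adjusted p = 0.0437) and -0.89 at E11.5 (SE 0.11, adjusted p = 0.00264). *Slit2* fell at E11.5 (log2 FC -0.99, SE 0.09, adjusted p = 0.000283) and had a log2 FC of -0.53 at E13.5 (adjusted p = 0.0576). The other 10 were not called at either stage, among them *Bmp10*, a growth factor of trabeculae (0.06 at E13.5 and 0.29 at E11.5), *Hcn4*, the pacemaker channel (0.06 and 0.40), and *Tbx5* (0.20 and 0.20). The E13.5 call of *Sema3a* was lost in 13 of 16 fits without 1 heart and under 8 of the 14 other alternatives, while 4 of the 14 called *Slit2* at E13.5 as well. The E11.5 calls of both were lost under 1 alternative, in which each stage was fitted separately.

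Of 18 genes of the signals between endocardium and muscle that build trabeculae, none was called. The median log2 FC of this list was -0.11 at E13.5 and -0.18 at E11.5, and unadjusted p values under 0.05 were found for 5 of the 18 at E13.5 and 6 at E11.5, where the shares of all genes were 3.94% and 9.34%. *Angpt1*, a ligand that muscle sends to the endothelial receptor Tek, had a log2 FC of -0.68 at E13.5 (adjusted p = 0.688) and -0.83 at E11.5 (adjusted p = 0.114), and *Jag1*, a Notch ligand, had -0.12 at E13.5 and -0.54 at E11.5 (adjusted p = 0.0775), and was called lower at E11.5 under 4 of 30 alternatives. *Nrg1* and its receptors *Erbb2*, *Erbb3* and *Erbb4*, the pathway in which *Etv1* is known to act, had log2 FC values between -0.11 and 0.13 at E13.5. At E11.5 the values ran from -0.29 upward and below 0, with none called at either stage. Every E11.5 mutant lay below every E11.5 control for *Nrg1* (means 8.02 and 8.32, adjusted p = 0.577), *Jag1*, *Angpt1*, *Tek*, *Adamts1* and *Has2*. The other genes of this list overlapped at E11.5, and 3.93% of all genes had groups fully apart there, in either direction.

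**Figure D4:**
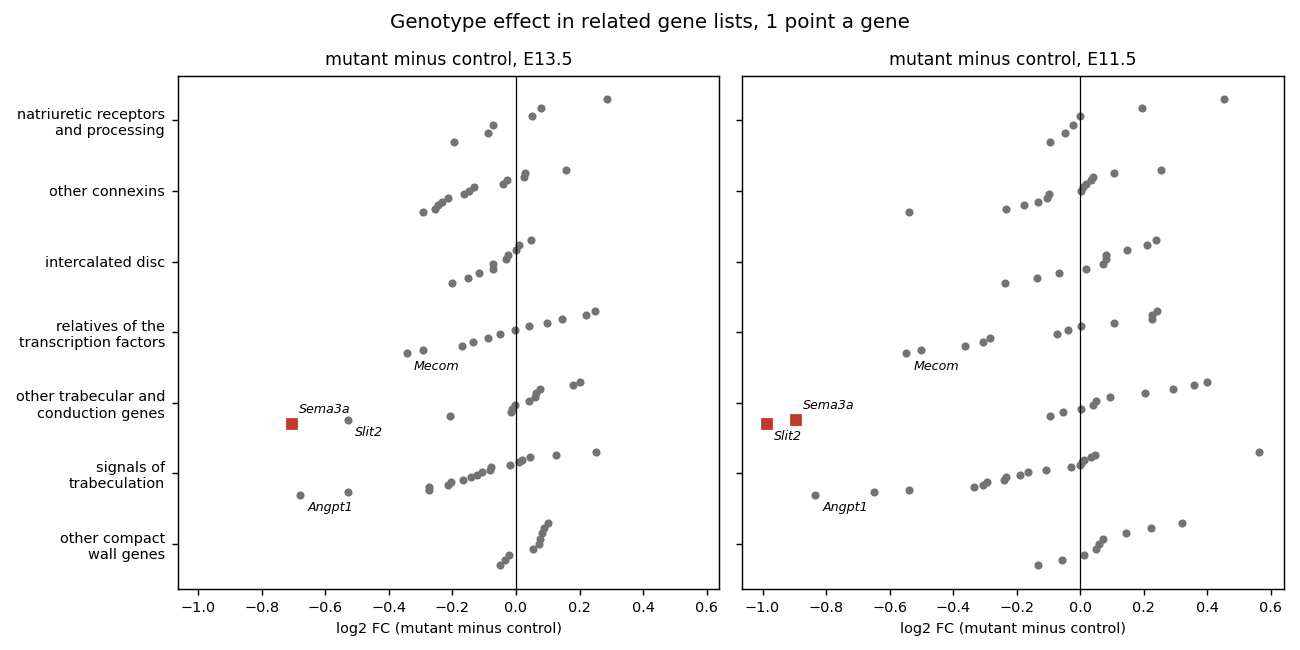
Log2 FC of mutant minus control for the 80 measured genes of 7 related lists, 1 point a gene, at E13.5 (left) and E11.5 (right), with genes of a list ordered by value. Red squares are called genes, *Sema3a* at both stages and *Slit2* at E11.5. Labels also mark *Mecom* and *Angpt1*, which were not called.

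Between the stages, differences were larger, but they rest on how the arrays of the 2 stages are scaled. Of all genes, 17.7% were called higher and 13.4% lower at E13.5 than at E11.5 in mutants, and 17.3% and 13% in controls. Among the 10 genes, 3 were called higher in mutants (*Gja5*, *Gja1* and, by its dimmer probe set, *Etv1*), and 5 in controls (these 3, *Nppa* and *Mycn*), with none lower. By brightest probe sets the counts were 2 and 4, against 16.8% and 16.5% of all genes called higher. Whether both stages were normalised in 1 run is not stated, and the SD within an array was 2.38 to 2.42 at E13.5 and 2.18 to 2.26 at E11.5.

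*Gja5* had the largest difference between the stages of the 10, and it held under every scaling tried. Its level averaged 11.92 ± 0.11 in mutants at E13.5 and 10.54 ± 0.22 at E11.5 (SD, n = 4 each), a log2 FC of 1.38 (SE 0.11, adjusted p = 3.77e-07). In controls it averaged 11.40 ± 0.06 at E13.5 and 10.31 ± 0.05 at E11.5 (SD, n = 4 each), a log2 FC of 1.09 (SE 0.11, adjusted p = 2.71e-06). Under the 29 alternatives it remained called, with log2 FC values between 0.89 and 1.44 in mutants and between 0.67 and 1.14 in controls. In the order of the 4 groups, E13.5 mutants were highest, followed by E13.5 controls, then E11.5 mutants and E11.5 controls, and only the E11.5 pair overlapped.

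*Gja1* was higher at E13.5 by 0.67 in mutants (SE 0.13, adjusted p = 0.000947) and by 0.73 in controls (SE 0.13, adjusted p = 0.000463). *Nppa* was higher by 0.45 in mutants (SE 0.11, adjusted p = 0.00412), which did not pass the size of 0.5, and by 0.61 in controls (SE 0.11, adjusted p = 0.000442). *Mycn* was higher by 0.50 in mutants (SE 0.10, adjusted p = 0.00147), just inside the size limit and not called, and by 0.67 in controls (SE 0.10, adjusted p = 0.000148). Without replicate 4 of the E11.5 mutants, both genes were called in mutants, at 0.54 for *Nppa* and 0.59 for *Mycn*, and *Mycn* was also called without replicate 3 of the mutants at E13.5 (0.52) or at E11.5 (0.51). For these 3 genes no E13.5 heart overlapped an E11.5 heart of the same genotype. The dimmer *Etv1* probe set was higher by 0.66 in mutants and 0.63 in controls, both called, whereas the brighter was higher by 0.26 and 0.15 with adjusted p values of 0.169 and 0.444. *Gjc1* was the only gene of the 10 with a lower level at E13.5 in both genotypes, by a log2 FC of -0.23 in mutants (adjusted p = 0.112) and -0.31 in controls (adjusted p = 0.0411), and it was not called. Percentages of genes whose hearts did not overlap between the stages were 39% in mutants and 42.3% in controls, and among the 10 genes the counts were 4 and 6.

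When each array was scaled to the same spread, the stage difference of *Nppa* turned to -0.29 in mutants and -0.09 in controls. That of *Gja1* shrank to 0.10 and 0.18, and *Gjc1* was then called lower, by -0.58 and -0.65. In controls, *Gjc1* was also called lower under quantile normalisation (-0.55) and cyclic loess (-0.56), and *Nppa* lost its call there (0.49 and 0.40). Of the genes called between the stages, *Gja5* alone kept its call under quantile normalisation, cyclic loess and scaling to 1 spread in both genotypes. *Gja1*, *Mycn* and the dimmer *Etv1* probe set kept their direction, but most of their calls were lost. In mutants, *Gja1* was 0.46 and 0.45 under quantile normalisation and cyclic loess, and the dimmer *Etv1* probe set was 0.40 to 0.44 under the 3 scalings, none of them called. In controls, *Mycn* was 0.41 to 0.46 and the dimmer *Etv1* probe set 0.30 to 0.39 under the 3 scalings, none called, and *Gja1* remained called under quantile normalisation only (0.52). *Nppb*, *Cited1*, *Irx3* and *Prdm16* had log2 FC values from 0.0044 to 0.28 as deposited, none called, and their signs turned under some scalings in at least 1 genotype.

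**Figure D5:**
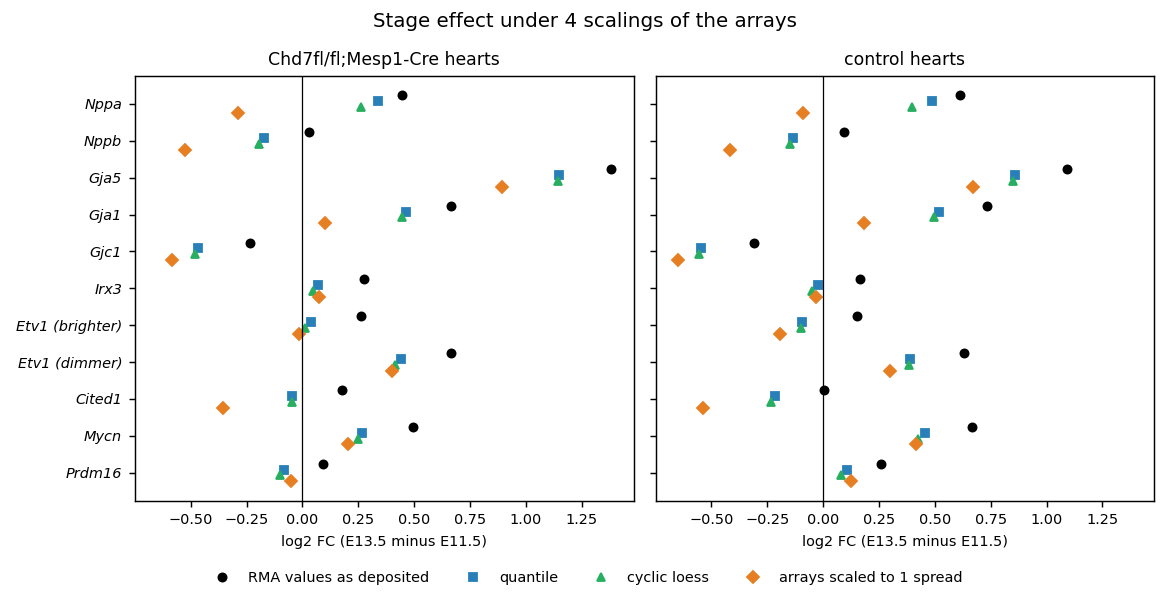
Log2 FC of E13.5 minus E11.5 for each probe set in mutant (left) and control hearts (right), from the deposited RMA values and after 3 other scalings of the arrays. *Gja5* stays the farthest to the right under every scaling, *Nppa* and *Nppb* reach negative values when arrays are scaled to 1 spread, and *Gjc1* stays below 0.

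Related genes also differed between the stages. In the intercalated disc, *Jup* (plakoglobin) was called higher at E13.5 by 0.78 in mutants and 0.93 in controls, and *Pkp2*, *Ctnna3* and *Ctnnb1* were called higher in both genotypes. This made 4 of 10 in mutants and, with *Cdh2*, 5 of 10 in controls. By brightest probe sets, which the lists use, 16.8% and 16.5% of all genes were called higher. Under quantile normalisation or cyclic loess, 2 of the 10 were called in each genotype. In the natriuretic pathway, the receptor *Npr1* (0.66 and 0.61) and *Corin*, the protease that cleaves pro-ANP (0.61 and 0.71), were called higher in both. Of the 13 other connexins, 4 were called lower and 1 higher in mutants, and 3 lower and 1 higher in controls. Of all genes, 13.4% and 13% were called lower, there by any probe set. *Gja3* was higher in both (0.74 and 0.88) and *Gjd3* lower in both (-0.61 and -0.65). With dim probe sets (mean level under percentile 40) left out, only 2 of these connexins were called in mutants and 2 in controls. *Hey2*, a repressor of the trabecular programme in the compact wall, was higher in both (0.80 and 0.85), as was *Nkx2-5* (0.61 and 0.56). The list that holds *Nkx2-5* had 2 genes called higher and 1 lower in mutants, and 2 higher and 0 lower in controls. On it, *Slit2* rose from 9.17 to 9.45 at E11.5 to 10.48 to 10.62 at E13.5 in mutants. In controls it rose from 10.18 to 10.46 to 10.93 to 11.13. *Hcn4* was at 9.26 to 9.78 in E13.5 mutants, against 10.34 to 10.50 in E11.5 mutants. In controls it was at 9.31 to 9.73, against 9.84 to 10.17. In mutants, the count of connexins was 3 under quantile normalisation, cyclic loess or scaling to 1 spread. Scaling to 1 spread left no gene of the compact wall list called in either genotype, *Hey2* included. Over all alternatives, the natriuretic count was 2 to 4 in mutants and 3 to 4 in controls. For the list that holds *Nkx2-5*, the count was 2 to 4 in mutants and 1 to 4 in controls.

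The genes whose levels followed each of the 10 most closely over the 16 hearts were found by Pearson's r among genes above percentile 40 of mean level. The 16 hearts fall into 4 groups, so such values mix differences between groups with those between hearts of a group, and they are given with no test. The closest was *Pgm1* for *Nppa* (r = 0.972), *Rora* for *Nppb* (r = 0.878), *Hspd1* for *Gja5* (r = 0.974), *Rnf181* for *Gja1* (r = 0.983), *Lama1* for *Gjc1* (r = 0.880), *1700006J14Rik* for *Irx3* (r = 0.851), *Cped1* for *Etv1* (r = 0.896), *Ppp1r37* for *Cited1* (r = 0.882), *Sparcl1* for *Mycn* (r = 0.965) and *Akna* for *Prdm16* (r = 0.832). For *Nppb*, the 3 closest were the nuclear receptors *Rora* and *Nr4a1* (r = 0.852) and *Sgms1* (r = 0.860). After subtracting group means, *Rora* stood at 0.860, *Nr4a1* at 0.882 and *Sgms1* at 0.924. *Nr4a1* was highest in the same 3 hearts as *Nppb*, with 9.99 in replicate 4 of the E11.5 mutants. In replicates 4 and 1 of the E13.5 mutants it was 9.68 and 9.47. For *Etv1*, *Sema3a* was the third closest (r = 0.869, and 0.409 after subtracting group means), and neither gene had a mutant heart that overlapped the controls of its stage.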

How the data were processed

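Each of the 16 embryonic hearts had an array of its own (Mouse Gene 1.0 ST, Affymetrix). The deposited values are log2 levels that the authors made with RMA in the affy package, with limma named for the tests. Versions, and whether both stages were normalised in 1 run, are not given in the sources used here. Probe sets were named through the platform annotation: 21640 named 1 gene, 1321 named several and 11799 named none.

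Limma 3.58.1 under R 4.3.3 was fitted to all 16 arrays with a mean for each of 4 groups and 12 residual degrees of freedom, without filter. Mutant was compared with control at each stage, and E13.5 with E11.5 in each genotype. The thresholds (adjusted p under 0.05, log2 FC over 0.5 in size) follow the methods, and the test of the difference between stages had none on size. Where a gene had several probe sets, its value is that of the brightest, and a call could come from any. With 4 hearts a group, the number of arrays limits the precision.

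The 10 genes and the lists were chosen with earlier results of these data known. All 10 are named, together with list members called between the genotypes and at most 2 further members of a list with the smallest p. The 2 nearest measured genes on each side of *Nppb* and *Nppa* and the genes most alike in pattern are also named. Of the list members called between the stages, only some are named, and lists left out there also held such calls. Other list members and genes that answer a question of the text were named after their values were seen. Promoter windows and motifs come from RefSeq (GRCm38.p6), in which 9 of the 10 genes had a window.

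Replicate numbers were not used to pair hearts. Deviations of same-numbered hearts correlated between -0.06 and 0.08. Differently numbered hearts were not compared in this way, so shared litters or days of processing cannot be told from it. Hearts of a group correlated at 0.969 to 0.992. The fit was tested on simulated data. Alternatives were other scalings of the arrays (cyclic loess, quantile, centring, 1 median absolute deviation), array weights, each stage fitted by itself, a prior that is robust and trended, leaving out dim probe sets (under percentile 40) or those naming several genes, the median probe set, a replicate block, a Y-linked covariate, no fold threshold, and leaving out each heart. Leaving out the 3 hearts that stood apart was added after seeing the data. Python 3.11.15 and matplotlib 3.10.9 drew the figures.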

Additional observations from a re-analysis of the deposited data

Results flagged for a closer look

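A pair of values stood apart from the rest of their group among 44 groups of 4 hearts tested, 11 probe sets in each of 4 groups, by the gap to the nearest other heart relative to the range of the group. Chance flags about 1 in 20 groups. *Prdm16* in replicate 3 of the E13.5 mutants was 8.42, against 8.72 to 8.74 in the other E13.5 mutants. *Mycn* in replicate 4 of the E13.5 controls was 9.80, against 9.83 to 9.84 in the other E13.5 controls, a gap that is small because the group lay so close together.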

How the results depend on the processing

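Among the alternatives, the log2 FC of the 10 genes was on the same side of 0 and of the threshold in 1270 of the values computed, past the threshold in 31 where it had not been, no longer past it in 21, and reversed in 58. The cause was not tested for any of these.

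At E11.5 the count of genes called between mutants and controls was 0 instead of 1 with the Y-linked covariate, with the median over the probe sets of a gene, with array weights, with stages fitted separately, or without the hearts that stood apart. It was 1 in every fit without 1 heart. With the replicate block it was 0, and this block, which rests on the replicate numbers alone, reversed *Nppa* at E13.5 (0.0147) and the stage difference of *Cited1* in controls (-0.0132). At E13.5 the count was 2 instead of 0 without dim probe sets, with array weights or with a robust and trended prior, 1 with cyclic loess or with probe sets naming 1 gene, and 0 to 2 when 1 heart was left out. In the difference between stages it was 0 throughout.

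For E13.5 against E11.5 in mutants, the count was 1 instead of 3 with quantile normalisation or cyclic loess, 5 with centred arrays, without a fold threshold or without the hearts that stood apart, and 3 to 5 when 1 heart was left out. In controls it was 3 instead of 5 with quantile normalisation, 2 with cyclic loess and 3 with arrays scaled to 1 median absolute deviation. All 5 were called higher, whereas these counts hold 2, 1 and 1 genes called higher, and *Gjc1* called lower each time, with *Cited1* also lower under the last. In mutants the last setting gave 2, with *Gja5* higher and *Gjc1* lower.

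Reversed stage differences under quantile normalisation were, in mutants, *Nppb* -0.17, *Cited1* -0.0472 and *Prdm16* -0.0842, and, in controls, *Nppb* -0.14, *Irx3* -0.0215, *Etv1* -0.0924 and *Cited1* -0.22. Under cyclic loess they were, in mutants, *Nppb* -0.20, *Cited1* -0.0465 and *Prdm16* -0.10, and, in controls, *Nppb* -0.15, *Irx3* -0.0480, *Etv1* -0.10 and *Cited1* -0.24. With arrays scaled to 1 median absolute deviation they were, in mutants, *Nppa* -0.29, *Nppb* -0.52, *Etv1* -0.0158, *Cited1* -0.35 and *Prdm16* -0.0530, and, in controls, *Nppa* -0.0894, *Nppb* -0.42, *Irx3* -0.0312, *Etv1* -0.19 and *Cited1* -0.54. Differences between mutants and controls at E11.5 reversed for *Gjc1* under quantile normalisation (-0.000953), for *Gja1* (0.0487), *Gjc1* (-0.00200) and *Irx3* (0.0171) with the Y-linked covariate, and for *Nppb* (-0.11) without the hearts that stood apart. That last setting also reversed *Nppa* at E13.5 (0.0240) and the stage difference of *Prdm16* in mutants (-0.0246).

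Leaving out 1 heart reversed 12 differences, of which that of *Nppb* at E11.5 (0.30 with all hearts) was the largest and turned to -0.0210 without replicate 4 of the E11.5 mutants. Mutant minus control at E11.5 ranged from -0.0983 to 0.0832 for *Gja1*, from -0.22 to 0.0949 for *Irx3*, from -0.0687 to 0.11 for *Gjc1* and from -0.0210 to 0.44 for *Nppb*. At E13.5 it ranged from -0.0674 to 0.0240 for *Nppa*, from -0.15 to 0.0013 for *Gja1* and from -0.0140 to 0.13 for *Prdm16*. The difference between stages of the dimmer *Etv1* probe set ranged from -0.0336 to 0.102. The stage difference ranged from -0.11 to 0.35 for *Nppb* and from -0.00437 to 0.22 for *Prdm16* in mutants, and from -0.0317 to 0.23 for *Nppb* and from -0.0615 to 0.0679 for *Cited1* in controls.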
